A study of Bos taurus with 11 samples.

Results

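The proteasome genes of bovine endometrium were taken as all non-control probes whose gene name in the array files begins with PSMA to PSMG and a number, leaving out the immunoproteasome genes PSMB8, PSMB9 and PSMB10. The rule used names alone, with no measured value. It found 96 of 43653 probes, for 44 of the 25325 distinct names on the array. One of the 44, PSMC3IP, shares the name but encodes a protein of homologous chromosome pairing, so that 43 genes belong to the proteasome or its assembly. PSMB11 is among them as the thymus form of a catalytic core subunit. PSME3 and PSMA8 were not analysed here.

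RNA came from endometrial biopsies taken on day 7 of the oestrous cycle. The 6 fertile cows had conceived within 3 rounds of embryo transfer (ET) or artificial insemination (AI) before biopsy and again at the first ET afterwards. The 5 subfertile cows had not conceived in 3 successive ET or AI, although their tracts showed no detectable abnormality and their cycles appeared normal. Each cow was a separate animal measured on 1 single-colour Agilent array. The labels used here give no treatment, breed, age or parity.

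The proteasome is the protease that degrades ubiquitin-tagged proteins in the cytoplasm and nucleus. Its core particle is a stack of rings of α subunits, which form the gate, and β subunits, of which PSMB5, PSMB6 and PSMB7 carry the active sites. The regulatory particle caps the core. Its base holds a ring of ATPases (PSMC1 to PSMC6) that unfolds substrates, beside scaffold and ubiquitin-receptor subunits, and its lid holds PSMD14, the enzyme that removes ubiquitin. Other caps (PSME1 with PSME2, and PSME4) open the core without ubiquitin, PSMF1 is an inhibitor, and the PSMG proteins, PSMD5, PSMD9 and PSMD10 help the particle assemble.

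Of the 96 probes, 89 were tested, being well above background on at least 5 of the 11 arrays. Every one of the 44 genes had a tested probe, and each gene is represented by the brightest of them. All 44 representatives were well above background on all 11 arrays, so that the filter removed no gene. Levels are log2 signal relative to the 75th percentile of the same array. A difference is the subfertile mean minus the fertile mean, on the log2 scale, with adjusted p from limma over the 31877 probes tested and a threshold of 0.05. The same fit on quantile-normalised signals stands beside it, because the 2 scalings part for bright probes. The median signal of the arrays was 161 to 452 in fertile and 54.3 to 92.7 in subfertile cows. All subfertile arrays were scanned on the same day, and the fertile arrays with a known day on several days. No slide or scan day that is known from the file headers held both groups, so batch and group cannot be told apart. Tissue pieces hold several cell types, and more cells of a type and more RNA per cell cannot be told apart.

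Proteasome transcripts differed little between the groups. With 75th-percentile scaling 10 of 44 genes were higher in subfertile cows and 1 was lower, while 33 did not pass. Over all tested probes 14.8% were higher and 7.38% were lower. The median difference over the 44 genes was 0.21, with 34 of them above 0. Over all tested probes the median was 0.067, with 17984 of 31877 above 0. Leaving out PSMC3IP gave a median of 0.22 and the same 10 and 1. The genes that passed had differences of 0.34 to 0.64, or 1.26- to 1.56-fold, and PSMC6 fell by 0.29. Quantile normalisation left 2 genes higher, PSMG1 and PSMG3, and 2 lower, PSMC6 and PSMD1. The background was then 10.2% higher and 9.87% lower, and the median over the 44 genes was 0.078 beside -0.015 over all tested probes. With that scaling 27 of the 44 genes were above 0, as were 15411 of the 31877 tested probes. The balance of 10 to 1 was thus seen with the first of these 2 scalings and not with the other. Subfertile and fertile cows did not overlap for 11 genes, 9 of them with every subfertile cow above and 2 with every one below, where 9.65% and 3.9% of all tested probes did so.

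**Figure D1:**
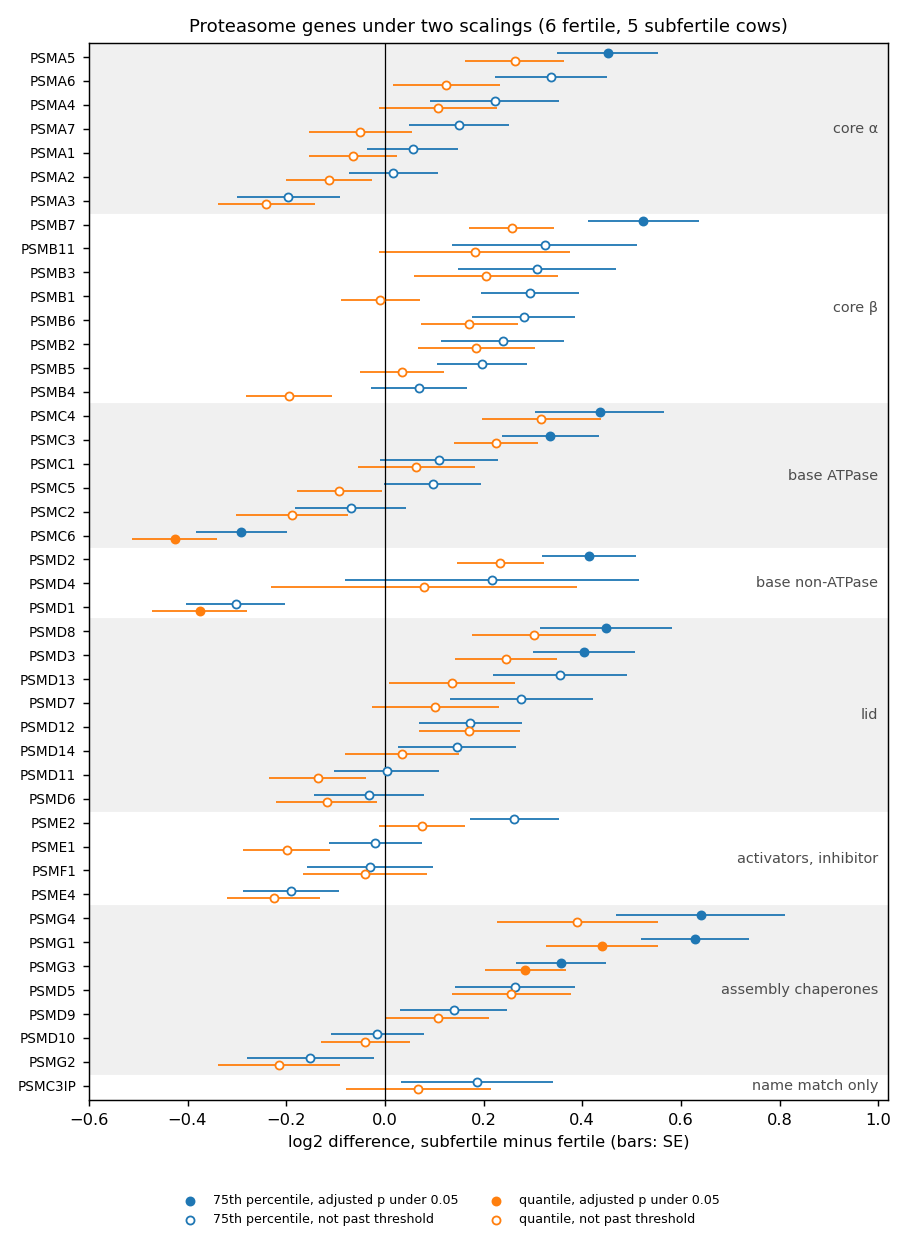
Log2 difference (x axis, subfertile minus fertile) of each of the 44 genes (y axis, grouped by role), with 75th-percentile scaling in blue and quantile normalisation in orange. Points are limma estimates from 6 fertile and 5 subfertile cows, bars their SE, and filled points have an adjusted p under 0.05. The orange points lie to the left of the blue ones for most genes, and 11 blue but only 4 orange points are filled.

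The subunits also varied little from cow to cow. The median SD of the 44 genes was 0.157 among fertile and 0.129 among subfertile cows. Over all tested probes it was 0.277 and 0.248, and over the 3089 tested probes with levels between the quartiles of the proteasome genes it was 0.198 and 0.175. Differences between scan days can enter the fertile SD but not the subfertile SD, as the subfertile arrays shared a day. Expressed as each cow's median deviation from the gene means, the fertile cows stood at -0.14, -0.02, -0.15, 0.05, -0.13 and -0.08, and the subfertile cows at 0.08, 0.14, 0.06, 0.12 and 0.18. The groups did not overlap on this scale, and fertile cow 4 came nearest to the subfertile cows. The same measure over all tested probes did not overlap either, at -0.063 to -0.0057 in fertile and 0.019 to 0.078 in subfertile cows. After quantile normalisation the ranges of the 44 genes, -0.058 to 0.041 and -0.0045 to 0.074, did overlap.

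Among the 7 α subunits of the core, 1 was higher, none was lower and the median difference was 0.15 (-0.05 after quantile normalisation). PSMA5 was the gene that passed. Its level ran from 3.53 to 3.90 in fertile cows, with a median of 3.63, and was 3.99, 4.10, 4.05, 4.03 and 4.36 in the subfertile cows. The groups did not overlap, with subfertile cow 5 highest and fertile cow 1 the highest of its group. The difference was 0.45 ± 0.10 (SE; adjusted p = 0.0110), or 1.37-fold, against 0.26 (adjusted p = 0.0837) after quantile normalisation. PSMA6 had the next smallest p, with a difference of 0.34 (adjusted p = 0.0536) and overlapping groups. The other 5 ranged from -0.20 for PSMA3 to 0.22 for PSMA4, and none of them passed under either scaling.

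All 8 β subunits had differences above 0, from 0.07 for PSMB4 to 0.52 for PSMB7, but only PSMB7 passed. Their median was 0.29, or 0.18 after quantile normalisation, when 6 of 8 were above 0. The 8 include the thymus form PSMB11 (0.32), which was dim at a mean level of -4.76, where the next dimmest, PSMB2, had 1.90. PSMB7 is the core subunit with trypsin-like activity. Fertile cows had PSMB7 levels of 4.39 to 4.76 with a median of 4.47, and the subfertile cows read 4.83, 5.10, 5.04, 5.00 and 5.32. The groups were separate, the closest cows being subfertile cow 1 and fertile cow 4. The difference was 0.52 ± 0.11 (adjusted p = 0.00840), or 1.44-fold, and 0.26 (adjusted p = 0.0560) after quantile normalisation.

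PSMB7 had a second probe nearer the 5′ end of the same transcript that showed no such shift, so both are printed. The value that passed belongs to the probe that starts at base 888 of its target and lies at chr11:98624298-98624357 on the minus strand. The second starts at base 464 and was placed, across a gap, at chr11:98853337-98872266 on the same strand. Coordinates are those of the array annotation on bovine build HGSC Btau_3.1, and 30 bases of each 60-base probe are shown 5′ to 3′. Capitals mark AATAAA, the letters of the common polyadenylation signal.
PSMB7 probe at base 888: cttgctgaatgaacccAATAAAaaatgaaa
PSMB7 probe at base 464: tctacagcatctatcctcatggatcaactg
The probe at base 464 gave fertile levels of 1.57 to 1.87 with a median of 1.79, and subfertile levels of 1.77, 1.84, 1.66, 1.91 and 1.87. These groups overlapped, and the difference was 0.04 ± 0.09 (adjusted p = 0.785).

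The other catalytic subunits did not pass. PSMB5, the chymotrypsin-like subunit, had levels of 3.51 to 3.79 in fertile cows and 3.75, 3.87, 3.63, 3.89 and 3.82 in subfertile cows, a difference of 0.20 ± 0.09 (adjusted p = 0.141). PSMB6, the caspase-like subunit, had 2.70 to 2.90 in fertile cows. Of the subfertile cows, cow 3 at 2.74 lay among the fertile ones, cows 2, 4 and 5 had 3.11, 3.15 and 3.25, and cow 1 was just under cow 2. The difference was 0.28 ± 0.10 (adjusted p = 0.0739). PSMB1, a structural subunit, had a difference of 0.29 (adjusted p = 0.0536), which was -0.01 after quantile normalisation.

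A second probe carrying the name PSMB6 behaved differently, and was singled out after its values were seen. It was designed from an expressed sequence tag and reads the plus strand at chr19:26939623-26939682, whereas the probe of the PSMB6 messenger RNA reads the minus strand at chr19:26938979-26939038. The first 30 bases of each show which strand is meant.
PSMB6 messenger RNA probe: gcaggtacttctgggagaccagattcccaa
PSMB6 opposite-strand probe: atgatgattcctgccatcaggtcttctcga
The opposite-strand probe was dim but well above background on all 11 arrays. Its levels were -5.58 to -5.22 in fertile cows, with a median of -5.38, and -3.62, -4.09, -4.19, -4.41 and -3.89 in subfertile cows. The groups were far apart, and the difference of 1.34 ± 0.14 (adjusted p = 2.3e-04), or 2.54-fold, was the largest of the 89 tested probes. After quantile normalisation it was 1.22 (adjusted p = 5.8e-04). By its annotated strand this probe reads the complement of the PSMB6 messenger RNA, and it is counted among the probes but represents no gene.

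The 6 ATPases of the base gave 2 higher genes and 1 lower, with a median of 0.10 (-0.014 after quantile normalisation, when only PSMC6 passed). PSMC6 was the single gene that passed as lower with 75th-percentile scaling. Its fertile levels were 3.28 to 3.55, with a median of 3.36, and its subfertile levels were 3.24, 2.91, 3.15, 3.08 and 3.13. Every subfertile cow lay below every fertile cow, by a narrow margin for subfertile cow 1. The difference was -0.29 ± 0.09 (adjusted p = 0.0438), and -0.43 (adjusted p = 0.00803) after quantile normalisation. The probe that measured it lies at chr10:11289911-11289970 on the plus strand. Its first 30 bases are given because it is the only representative that passed as lower with that scaling.
PSMC6 probe: catagtagtaccagggagcatttcttatga

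PSMC3 and PSMC4 were higher. PSMC3 levels ran from 2.65 to 3.01 in fertile cows, with a median of 2.75, and were 3.00, 3.13, 3.12, 3.01 and 3.27 in subfertile cows. The groups overlapped slightly, as fertile cow 4 lay above subfertile cows 1 and 4, and the difference was 0.34 ± 0.10 (adjusted p = 0.0319). A second PSMC3 probe, nearer the 5′ end, had overlapping groups and a difference of -0.11 (adjusted p = 0.460). PSMC4 spread widely among fertile cows, from 2.45 to 3.22 with a median of 2.97, and little among subfertile cows, at 3.35, 3.42, 3.26, 3.29 and 3.33. The difference was 0.44 ± 0.13 (adjusted p = 0.0348). Neither passed after quantile normalisation (0.22, adjusted p = 0.0824, and 0.32, adjusted p = 0.0839). PSMC1 (0.11), PSMC2 (-0.07) and PSMC5 (0.10) did not pass under either scaling, with adjusted p of 0.538, 0.690 and 0.510. Of the other PSMC5 probes 1 had -0.028 and 1 was higher by 0.39 (adjusted p = 0.0465), without overlap between the groups, but not after quantile normalisation (0.30, adjusted p = 0.127). The PSMC1 value rests on 10 cows, as the spot of fertile cow 1 was an outlier on its array.

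In the rest of the base PSMD2 was higher and PSMD1 stood near the threshold on the other side. Both are large scaffold proteins that join the base to its receptors. PSMD2 levels were 3.45 to 3.78 in fertile cows, with a median of 3.71, and 3.99, 4.19, 4.07, 4.01 and 4.22 in subfertile cows. No cow of either group overlapped the other, and the difference was 0.41 ± 0.10 (adjusted p = 0.0113), or 0.23 (adjusted p = 0.0817) after quantile normalisation. PSMD1 levels were 2.18 to 2.53 in fertile cows, with a median of 2.36, and 2.14, 2.18, 1.82, 2.03 and 2.13 in subfertile cows. The groups barely parted, between subfertile cow 2 and fertile cow 5. The difference was -0.30 ± 0.10 (adjusted p = 0.0505) and -0.38 (adjusted p = 0.0201) after quantile normalisation. PSMD1 had 5 tested probes. Those other than the brightest had -0.03, -0.07, -0.17 and -0.18, and none of them passed under either scaling. PSMD4, a ubiquitin receptor, had the largest SE of the 44 genes, with a difference of 0.22 ± 0.30 (adjusted p = 0.634). Its lowest cow, subfertile cow 1 at 2.16, and its highest, fertile cow 2 at 3.80, were both out of line with the group difference.

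The 8 lid genes had 2 higher, none lower and a median of 0.22 (0.12 after quantile normalisation, when none passed). PSMD3 levels were 3.40 to 3.69 in fertile cows, with a median of 3.48, and 3.76, 4.19, 3.88, 3.82 and 3.90 in subfertile cows. The groups did not overlap, and the difference was 0.40 ± 0.10 (adjusted p = 0.0189), or 0.25 (adjusted p = 0.110) after quantile normalisation. PSMD8 levels were 2.80 to 3.41 in fertile cows, with a median of 3.23, and 3.68, 3.64, 3.60, 3.48 and 3.60 in subfertile cows. Fertile cows 1 and 3, which shared a slide, were the lowest for PSMD8. The difference was 0.45 ± 0.13 (adjusted p = 0.0339), or 0.30 (adjusted p = 0.111) after quantile normalisation. PSMD14, the lid's deubiquitinating enzyme, had a difference of 0.15 ± 0.12 (adjusted p = 0.403). The others ranged from -0.03 for PSMD6 to 0.36 for PSMD13 and did not pass.

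No activator or inhibitor gene passed, and their median was -0.025 (-0.12 after quantile normalisation). PSME1 and PSME2, which form the interferon-inducible cap, had differences of -0.02 ± 0.09 (adjusted p = 0.903) and 0.26 ± 0.09 (adjusted p = 0.0582). The inhibitor PSMF1 had -0.03 ± 0.13 (adjusted p = 0.888). PSME4, the large single-chain activator known from spermatogenesis and DNA repair, had levels of 1.37 to 1.63 in fertile cows and 1.30, 1.31, 1.48, 1.42 and 1.09 in subfertile cows. Its groups overlapped and the difference was -0.19 ± 0.10 (adjusted p = 0.181). The other 3 tested PSME4 probes were each lower, by -0.33, -0.50 and -0.68 (adjusted p = 0.0286, 0.0254 and 0.0491). They also passed after quantile normalisation. The third of them was well above background in only 2 of the 5 subfertile cows, and 1 further PSME4 probe was too dim to test.

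The assembly chaperones held 3 of the 10 higher genes among their 7, with a median of 0.26 under both scalings. PSMG1, which with PSMG2 starts the ring of α subunits, had levels of 3.38 to 3.94 in fertile cows, with a median of 3.68, and 4.28, 4.39, 4.35, 4.17 and 4.26 in subfertile cows. Every subfertile cow exceeded every fertile cow. The difference was 0.63 ± 0.11 (adjusted p = 0.00325), or 1.55-fold, and 0.44 (adjusted p = 0.0203) after quantile normalisation. Its partner PSMG2 had -0.15 (adjusted p = 0.426). PSMG3 levels were 1.88 to 2.14 in fertile cows, with a median of 1.94, and 2.43, 2.35, 2.33, 2.16 and 2.40 in subfertile cows. Subfertile cow 4 lay just above the highest fertile cow. PSMG3 differed by 0.36 ± 0.09 (adjusted p = 0.0179), and by 0.28 (adjusted p = 0.0332) after quantile normalisation. A second, dimmer PSMG3 probe had overlapping groups and a difference of 0.11 (adjusted p = 0.543). After quantile normalisation the difference of that probe was 0.061 (adjusted p = 0.739). PSMG4, the partner of PSMG3, was higher by 0.64 (adjusted p = 0.0216), which did not pass after quantile normalisation (0.39, adjusted p = 0.110). The base chaperones PSMD5, PSMD9 and PSMD10 had differences of 0.26, 0.14 and -0.02 and did not pass. The second PSMD5 probe, however, was higher under both scalings (0.45, adjusted p = 0.0341, and 0.43, adjusted p = 0.0408), with every subfertile cow above the fertile range. PSMC3IP, the name match, had 0.19 (adjusted p = 0.411).

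**Figure D2:**
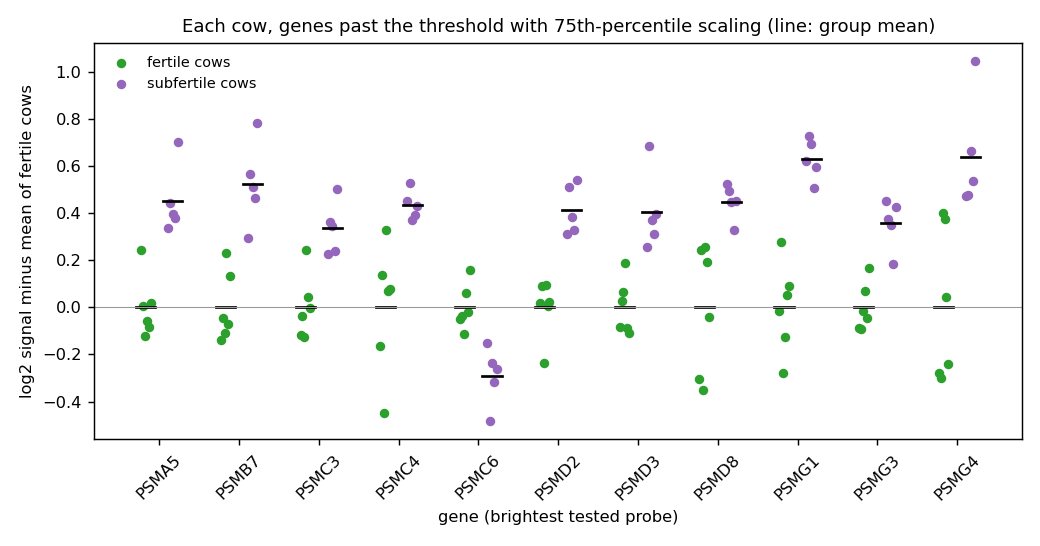
Log2 signal of each cow minus the mean of the 6 fertile cows (y axis) for the 11 genes past the threshold with 75th-percentile scaling (x axis), fertile cows in green, subfertile cows in purple, lines at group means. The 5 subfertile points lie above all fertile points for 9 genes, below them for PSMC6, and overlap them for PSMC3.

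The PSMG1 value too depended on the probe. The one that passed starts at base 955 of its target, at chr1:141510083-141510142 on the minus strand, and the other starts at base 755, at chr1:141513621-141513680 on the same strand. Capitals again mark AATAAA.
PSMG1 probe at base 955: ggtattatgagggtgttaacagAATAAAct
PSMG1 probe at base 755: gacctgatcacaatcgaagcttttaagcct
At base 755 the fertile levels were 2.09 to 2.54, with a median of 2.33, and the subfertile levels were 2.34, 1.93, 2.19, 2.13 and 2.23. The groups overlapped, with a difference of -0.15 ± 0.12 (adjusted p = 0.395).

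Of the 30 genes with more than 1 tested probe, the probes of 12 differed in the sign of their difference, although no gene had probes that passed in opposite directions. In only 3 genes, PSMA5, PSMC4 and PSMD3, did every tested probe pass the same way. The 2 PSMA5 probes share 59 of their 60 bases and the 2 PSMC4 probes are identical in sequence, so these are close to repeat measurements. The second PSMD3 probe (0.68, adjusted p = 0.0445) was dimmer than the first by 8.14 on the log2 scale. The PSMC4 pair gave differences of 0.44 and 0.44, and differed by 0.0335 on average within an array. Over all 89 tested probes 18 were higher and 5 were lower, and after quantile normalisation 6 were higher and 7 were lower. In PSMA4 the brightest probe did not pass and the other was lower. The brightest had a difference of 0.22 (adjusted p = 0.239), and the other, 0.27 to 0.72 in fertile cows and -0.07, -0.11, -0.15, -0.13 and 0.30 in subfertile cows, had -0.53 (adjusted p = 0.0188, over 10 cows since fertile cow 1's spot was an outlier).

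In 18 transcripts of the set, the first and last tested probes were at least 100 bases apart on one RefSeq messenger RNA. The probe nearer the 3′ end had the higher difference in 13 of the 18 (72.2%), with a median of 0.19 between the probes, and in 11 after quantile normalisation. Of all 4995 such transcripts on the array, 2158 (43.2%) had the higher difference at the 3′ end, with a median of -0.067. PSMG1, PSMA4 and PSMB7 had the widest gaps in that direction, and PSMC5, PSMD3 and PSMD1 the widest in the other. The 3′ probe was also the brighter one in 17 of the 18, as in 90% of all transcripts, so the choice of the brightest probe mostly took the 3′ probe. With the median of each gene's tested probes in its place, 8 genes were higher and 2 lower, and the median difference over the 44 genes was 0.14. Of the 11 calls 8 remained. PSMC3, PSMG1 and PSMG3 no longer passed, PSME4 was added as lower, and PSMB6 was added as higher by averaging its messenger RNA probe with the opposite-strand probe (0.81, adjusted p = 0.0010). This comparison was added after the values were seen, and its part in the calls was not tested.

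**Figure D3:**
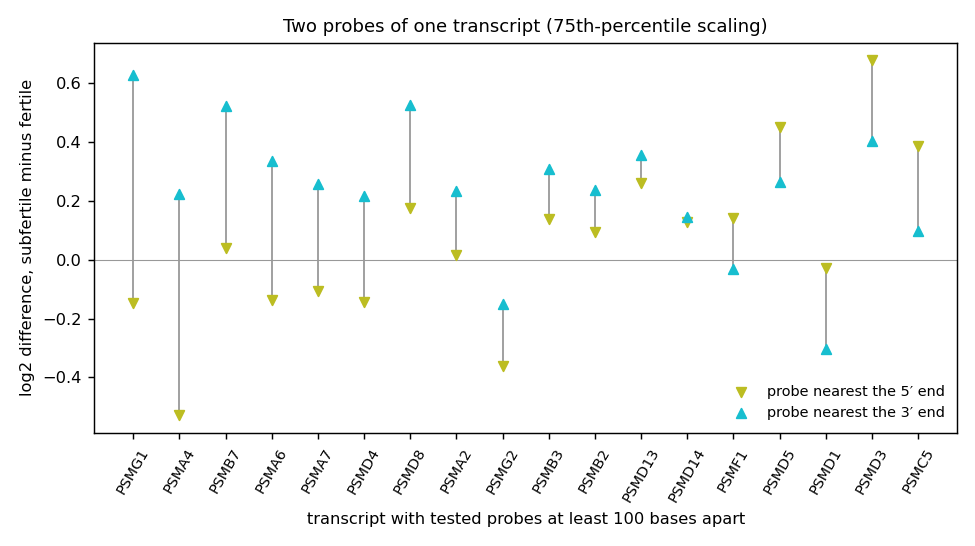
Log2 difference, subfertile minus fertile (y axis, 75th-percentile scaling), of the tested probes nearest the 5′ end (downward triangles) and the 3′ end (upward triangles) in 18 transcripts (x axis), ordered by the gap between the probes. The 3′ triangle is the upper one in 13 transcripts, from PSMG1 at the left, and the lower one in 5.

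The letters AATAAA occurred in 15 of the 96 probes (15.6%) and in 9.35% of all 43653 probes, searched on the printed strand. Of the 15, 6 were higher and none was lower, while of the 74 tested probes without the letters 12 were higher and 5 lower. Over the whole array 18.1% of tested probes with the letters were higher and 5.27% lower, beside 14.4% and 7.63% of those without. The letters are a description of the probes and not evidence of a transcript's end.

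The differences of all tested probes varied with brightness, and most proteasome genes lay in the range where they rose with it. From a level of -6 the bin medians fell, from 0.14 at -6 to -4 to -0.0091 at 0 to 1, and rose from there. Among all tested probes with a mean level of 2 to 3 the median difference was 0.089, at 3 to 4 it was 0.14, at 4 to 5 it was 0.22, and above 5 it was 0.58. After quantile normalisation these bins had medians between -0.040 and -0.0039. The 15 genes of the set with levels of 3 to 4 had a median of 0.22 and held 6 of the 10 higher genes, where 20.8% of all tested probes at that level were higher. The 8 genes at 4 to 5 had a median of 0.30 and 2 higher genes, beside 27.8%. The 3089 probes with levels between the quartiles of the set had a median of 0.11, with 1955 of them above 0. With a smooth trend in brightness taken out of each array, the set's median was 0.056. Then 2 genes were higher, PSMG1 and PSMG3, and 3 lower, PSMB4, PSMC6 and PSMD1, against 10.6% and 9.62% of all tested probes. With trends in GC content and brightness both taken out, 3 were higher and 1 lower (7.83% and 7.24%). Background correction by normexp gave 10 higher and 3 lower (46.8% and 6.78%).

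**Figure D4:**
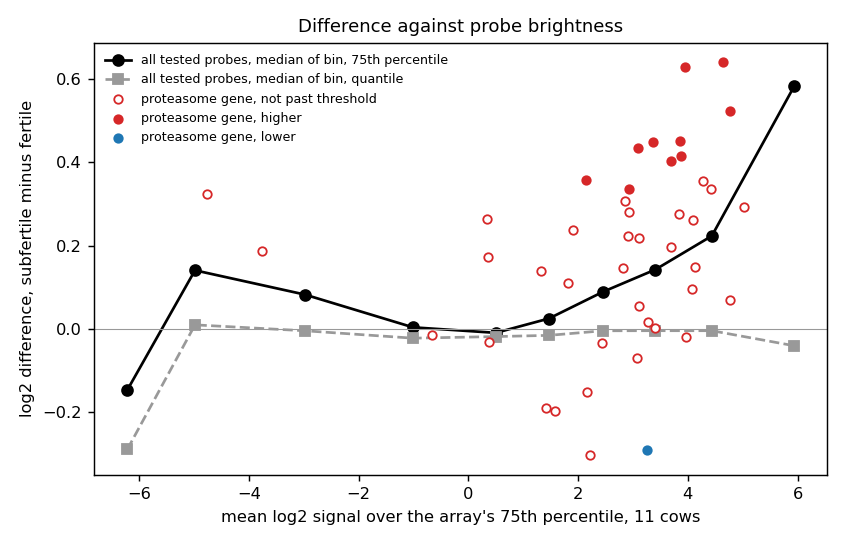
Log2 difference, subfertile minus fertile (y axis), against mean log2 signal relative to the array's 75th percentile (x axis). Red and blue circles are the 44 genes, filled where the adjusted p was under 0.05, and the lines join the medians of all tested probes in bins of level, black for 75th-percentile scaling and grey for quantile normalisation. The black line lies near 0 around a level of 0 and reaches 0.58 in the last bin, and 9, 15 and 8 genes lie at levels of 2 to 3, 3 to 4 and 4 to 5, along its rising part.

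Calls were fewer once slide or scan day was entered as a random block. With slide, PSMB7 (0.48, adjusted p = 0.0375) and PSMG1 (0.63, adjusted p = 0.0139) stayed higher and none was lower, beside 8.52% and 3% of all tested probes. With scan day no gene passed, beside 2.47% and 0.599%, and 10 were higher and 1 lower by limma at an unadjusted p under 0.05, which 20.3% of all tested probes reached in either direction. The nearest to the threshold was PSMG1 (0.63, adjusted p = 0.0504). Within the fertile group cows 2 and 5 shared a slide and a scan day, and cows 1 and 3 shared another slide and day. The gap between those pairs therefore holds slide and scan day together. Subfertile cows 2 and 4 shared a slide, as did subfertile cows 3 and 5, all on the same scan day, and their gap is not given here. Between the fertile pairs the median over the 44 genes was 0.0088. For 16 genes, however, that gap was wider than the one between the groups, and among the 11 that passed this held for PSMD8 (0.55 against 0.45). PSMC4 came close to it (0.41 against 0.44).

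Leaving out 1 cow at a time divided the 11 genes. PSMA5, PSMB7, PSMD2, PSMD3, PSMG1 and PSMG3 passed in all 11 such fits. PSMG4 failed only without subfertile cow 5 (0.54, adjusted p = 0.0525). PSMC3 and PSMD8 passed in 5 of 11, PSMC4 in 4 and PSMC6 in 2, namely without fertile cow 3 or subfertile cow 1. Without subfertile cow 5 the count of higher genes went from 10 to 6, PSMC3 (adjusted p = 0.0784), PSMC4 (0.0660), PSMD8 (0.0654) and PSMG4 being lost, and no gene was lower (PSMC6, 0.0746). PSMC3 was also lost without fertile cow 1, 2 or 3 or subfertile cow 2 or 3 (adjusted p up to 0.0717). PSMC4 was lost without fertile cow 1 or 5 or any subfertile cow (up to 0.0819). PSMD8 was lost without fertile cow 1 or 3 or subfertile cow 1, 2 or 3 (up to 0.0744). PSMC6 was lost without any other fertile cow or any other subfertile cow (up to 0.114).

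The immunoproteasome subunits that replace the active β subunits in immune cells or under interferon gave no call: PSMB8 had a difference of 0.013, PSMB9 0.068 and PSMB10 -0.21. Of 14 genes for other proteasome-bound proteins 2 were higher and 1 lower. ADRM1, a ubiquitin receptor of the base, was higher by 0.30 ± 0.09 (adjusted p = 0.0352), as was UCHL5, the deubiquitinase that ADRM1 binds (0.30, adjusted p = 0.0367). UBLCP1, a phosphatase of the nuclear proteasome, was lower by -0.39 ± 0.10 (adjusted p = 0.0184). The core maturation factor POMP had 0.20 (adjusted p = 0.251). ADRM1 passed in 2 of 11 fits that left out 1 cow, those without fertile or subfertile cow 4 (otherwise up to 0.0869), and UBLCP1 was lost without subfertile cow 2 (adjusted p = 0.0528). After quantile normalisation ADRM1 and UCHL5 did not pass, and 2 of the 14 were lower, UBLCP1 among them. None of 12 ubiquitin shuttles and unfoldase genes passed with 75th-percentile scaling, VCP having 0.11 (adjusted p = 0.455). UBQLN4 had the smallest p of that list, at -0.62 (adjusted p = 0.0512), and was lower after quantile normalisation (-0.74, adjusted p = 0.0364).

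Among 8 genes of the control of proteasome transcription, NFE2L3 was higher by 0.87 ± 0.26 (adjusted p = 0.0326; 0.84, adjusted p = 0.0455, after quantile normalisation). It passed in 4 of 11 fits that left out 1 cow, and was lost without fertile cow 1, 3, 4 or 5 or subfertile cow 1, 2 or 4 (adjusted p up to 0.0705). NFE2L1, the factor that raises subunit genes when the proteasome is impaired, had -0.06 (adjusted p = 0.705), and NFE2L2, the oxidative stress factor, had 0.30 (adjusted p = 0.0691). Of 13 genes for ubiquitin and its first enzymes 5 were higher and 1 lower. These included the polyubiquitin gene UBB at 0.57, which was -0.15 after quantile normalisation, so its direction depended on the scaling. RPS27A, a fusion of ubiquitin and a ribosomal protein, changed from 0.84 to -0.35 and passed both ways (adjusted p = 0.00117 and 0.0134). The activating enzyme UBA1 kept its direction (0.51 and 0.33) and so did UBA6 (-0.48 and -0.50), and both passed under both scalings.

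Markers of the tissue's cell types were counted in the same way. Beside them, 14.8% of all tested probes were higher and 7.38% lower, or 10.2% and 9.87% after quantile normalisation. Of 9 epithelial genes 6 were higher, led by CLDN3 (1.08, adjusted p = 0.00241), and 1 passed after quantile normalisation. Their mean level was 1.78 to 2.48 in fertile and 2.53 to 2.96 in subfertile cows, without overlap. The median epithelial difference was 0.54, and the median gap between fertile cows 2 and 5 and fertile cows 1 and 3, within the fertile group, was also 0.54. For 10 stromal genes the counts were 2 higher and 1 lower (FBN1, -0.98), and after quantile normalisation 0 higher and 3 lower, with medians of -0.11 and -0.40. Their mean levels were 3.22 to 3.40 in fertile and 2.81 to 3.33 in subfertile cows. Endothelial genes had 2 of 8 higher (PLVAP, 0.79), with a median of 0.19. Smooth muscle genes had 2 of 8 higher (SMTN, 0.89), with a median of 0.86 and all 8 above 0. Leukocyte genes had 1 of 10 higher (CD79A, 1.43) and 1 lower, with a median of -0.37 and 4 of 10 above 0. Cell-cycle genes had 1 of 7 lower (CCNB1, -0.53, lost without subfertile cow 2 at an adjusted p of 0.0611). Their median was -0.70, with 1 of 7 above 0. Mean levels of the endothelial, smooth muscle, leukocyte and cell-cycle genes overlapped between the groups. All 9 epithelial and all 10 stromal genes were well above background on every array. The part of these marker differences in the proteasome values was not tested.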

How the data were processed

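Cy3-labelled total RNA of 11 endometrial biopsies was hybridised to single-colour Agilent arrays, per the labels' protocols. The submitters' processing notes name Agilent Feature Extraction, version 10.5.1.1. Each deposited scanner file holds 45220 spots with linear intensity values (processed signal, mean, background). A log2 value table deposited by the authors was also used, which matches the scanner signals scaled to the 75th percentile and centred by probe; for fertile cow 1 only 17.0% of probes matched within 0.01, and for the others 100%. Its direction is that of the signal. Fertile cow 6's file lacks its header, and its probes were named from the other files.

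Control and outlier spots (1 to 156 an array) were left out and no spot was saturated. Log2 processed signals, minus each array's 75th percentile, were averaged over spots of a probe. The 31877 probes well above background on at least 5 of 11 arrays were fitted by group in R 4.3.3 with lmFit and eBayes of limma 3.58.1, and p was adjusted by Benjamini-Hochberg. The number of arrays limits the precision. Tested on simulated data of 31877 probes for 6 against 5 arrays, limma recovered 66% of 100 changes of 2-fold and 96% of 100 of 4-fold, with 9 false calls of 171. The simulated probes varied independently, without slide or scan-day effects, so the rate of false calls does not carry over to these arrays. Changes under 2-fold, such as those of the genes that passed here, were not simulated.

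Genes were named from the files; 75 of the 96 probes had their accession in a RefSeq gene table, each with the same symbol. Named were the 2 genes with the smallest p in each role, the catalytic subunits, PSMD4, PSMD14, the ATPases, activators and inhibitor, and in the other lists 10 fixed genes and the smallest p of each (a gene named by this rule is left out of the text, although counts include it); further genes appear with their difference or where they passed. The members and lists (roles, immunoproteasome, associated proteins, shuttles, transcription control, ubiquitin and E1, cell types) were chosen with earlier results of these data known. Alternatives were quantile and median scaling, normexp with an offset of 50, the authors' table, other filters, blocks for slide, for scan day and for the replicate number, brightness and GC trends, other variance models, probe medians, a threshold of 0.01 and leaving out each cow. Promoter sequences were not analysed here.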

Additional observations from a re-analysis of the deposited data

Results flagged for a closer look

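In 10 cases a cow stood apart from the rest of its group for a named gene, the gap to the nearest cow being larger than Dixon's test allows. These came from 92 groups checked, and chance alone gives about 1 in 20. For PSMB5 fertile cow 4 was highest at 3.79 (next 3.60), and for PSMC5 the same cow was highest at 4.29 (next 4.06). Fertile cow 3 was lowest for PSMD2 at 3.45 (next 3.69). Subfertile cow 3 was lowest for PSMB6 at 2.74 and for PSMD14 at 2.62 (next 2.95). Subfertile cow 1 was lowest for PSMD4 at 2.16 (next 3.28) and for UBQLN4 at -4.37 (next -3.77), and highest for the smooth muscle gene SMTN at 3.54 (next 2.57). Fertile cow 6 was highest for NFE2L2 at 2.75 (next 2.58) and for UBB at 6.58 (next 6.23).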

How the results depend on the processing

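With 75th-percentile scaling 10 genes were higher, 1 was lower and the median was 0.21. Quantile normalisation gave 2, 2 and 0.078, keeping 3 of the 11 calls, and median centring 4, 2 and 0.12. Removing the brightness trend gave 2, 3 and 0.056, and GC with brightness 3 higher (PSMC4, PSMD5 and PSMG1) and a median of 0.036. Blocking on slide gave 2 and 0, on scan day 0 and 0, and the replicate block 2 and 0 (PSMB7 and PSMG1). Cows of 1 number did not deviate together (correlations of -0.21 to 0.22), so the numbers do not pair them. At a threshold of 0.01, 2 were higher and 0 lower. Normexp gave 10 higher and 3 lower, with 46.8% of all tested probes higher. The strict filter on dim probes gave 13 higher and 2 lower, the trended robust variance 14 and 2, array weights 14 and 1, and probe medians 8 and 2 with a median of 0.14. By limma at an unadjusted p under 0.05, these settings passed 38.9%, 36.9%, 39.8% and 35.4% of everything they tested, in that order. With 75th-percentile scaling it was 36.6%, in either direction. Where no share of all tested probes at the adjusted threshold is given, the counts cannot be set against one. Leaving out each cow gave 6 to 12 higher, 0 to 1 lower and medians of 0.17 to 0.25. The causes were not tested.

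Reversed among the 46 named results were ADRM1 with probe medians (-0.017), and PSMC3 (-0.060) and VCP (-0.35) with GC and brightness trends removed. VCP was not called before and passed only there (adjusted p = 0.0181). UBB reversed with quantile normalisation (-0.15) and with the brightness trend removed (-0.10). RPS27A, described above, also reversed with quantile normalisation but is not among the 46. Of 1194 values of 46 named results, 998 kept direction and side of the threshold, 151 lost and 40 gained a call, 5 reversed, and 46 of the first kind were uncalled values that changed sign. Dim probes are limited by signal over background: normexp moved PSMB11 from 0.32 to 0.99 and PSMC3IP from 0.19 to 0.76, and both then passed.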
